A study of Mus musculus with 10 samples.

Results

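The low-expressing line of mice with a constitutively active Nrf2 transgene (CaNrf2-Low, here TGL) was compared with non-transgenic mice (NTG), gene by gene, in RNA of the left ventricle. The 3 TGL and 4 NTG libraries were taken by their labels from the 10 libraries of the series, and 14511 of the 21222 genes in the deposited count table passed the low-count filter and were tested. TGL mice carried the CaNrf2-Low genotype and NTG mice no transgene. Mice of both groups were males on the C57BL/6J background, aged 6 months and with no treatment named in the labels. The 3 libraries of the high-expressing line (CaNrf2-High, TGH), from mice of the same sex, background and age, entered the estimate of the spread and served to show where TGL differed from the other line. The labels name neither the promoter of the transgene nor a founder or litter. In the published form of this mouse the alpha-myosin heavy chain promoter restricts the transgene to cardiomyocytes. The labels do not say more than that the libraries are separate samples, so p-values measure the spread between these samples.

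Nrf2, the product of Nfe2l2, is a transcription factor that is kept scarce by Keap1, an adaptor that hands it to the proteasome. When it escapes Keap1 it pairs with a small Maf protein, binds antioxidant response elements in DNA and raises the genes of glutathione synthesis, detoxification, NADPH supply and iron handling. A constitutively active form lacks the part that Keap1 holds, and in the heart such a form is used to study what a standing antioxidant programme does to cardiomyocytes.

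In TGL hearts 602 genes were higher and 311 lower than in NTG hearts, which was 4.15% and 2.14% of the genes tested and 6.29% together. A gene is called here when the adjusted p of edgeR's quasi-likelihood F test was under 0.05. Called rises were larger than called falls: 297 of the 602 were at least 2-fold and 47 of the 311 fell to 0.5 times or lower, and the medians of the called genes were 0.97 and -0.54 on the log2 scale. The 297 include 28 genes of a block on chromosome 14, described below, whose reads cannot be placed on single members. The median of all genes tested was -0.005. In 595 of the 602 every TGL library lay above every NTG library, and in 302 of the 311 every TGL library lay below, while over all genes tested TGL lay above every NTG library in 10.8% and below in 9.44%. The number of calls changed when single libraries were left out, which also leaves fewer libraries for the test. Higher calls fell to 373 without TGL 0 and 372 without TGL 1. Lower calls fell to 144 without NTG 0, 143 without NTG 1, 84 without TGL 0 and 114 without TGL 1, and increased to 665 without TGL 2.

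**Figure D1:**
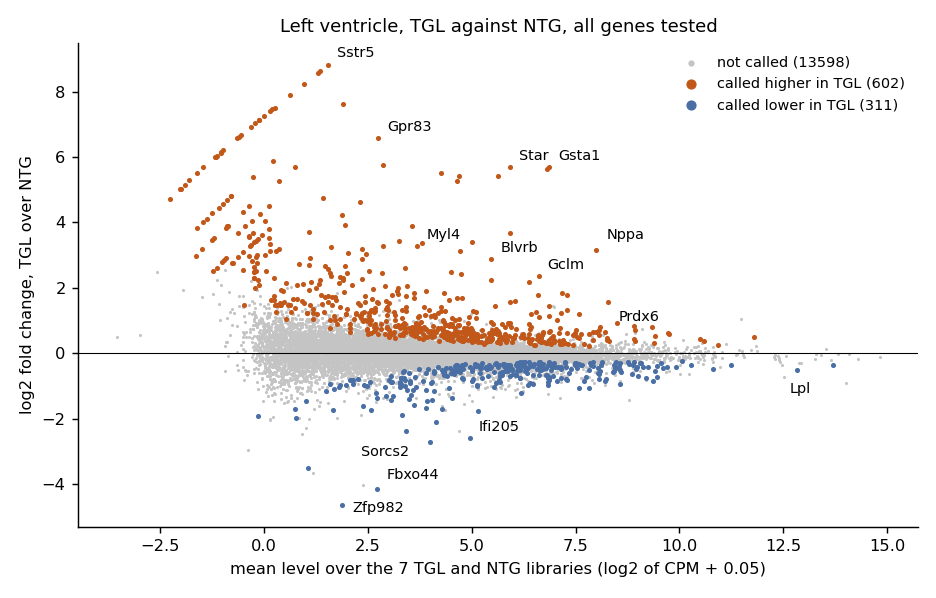
Log2 fold change of TGL over NTG (y) against the mean level over the 7 libraries (x, log2 of CPM plus 0.05) for the 14511 genes tested. Orange points are the 602 genes called higher in TGL, blue points the 311 called lower and grey points the rest, and the rising diagonal rows at the left are genes with a count of 0 in every NTG library or nearly so, whose fitted fold changes are no bounds.

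Library totals were 7076319 to 7209819 counts in TGL, 8168959 to 10896535 in TGH and 7893108 to 10092841 in NTG, so the TGL libraries were the shallowest. Levels are given in CPM, a gene's count scaled to a common library total after TMM adjustment. A count of 0 allows up to 3 counts, which is 0.408 to 0.436 CPM in a TGL library and 0.311 to 0.401 CPM in an NTG library and covers counting error only. TGL 2 and NTG 2 stood apart from the other libraries of their groups, and counts of calls that moved by over 1.5 times without either are given beside their lists. Ventricular cardiomyocyte markers summed to 66715 to 67639.7 CPM in TGL and to 66415 to 72017 CPM in NTG. The lymphocyte markers reached at most 4.98 CPM in sum in a TGL library and 3.20 CPM in an NTG library, and the adipocyte markers 0.272 and 0.415 CPM. Fewer cells of a type and less RNA per cell cannot be told apart in these bulk libraries.

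The gene of the transcription factor itself was not called. Nfe2l2 stood at 156, 129 and 182 CPM in TGL 0 to TGL 2 and at 164, 145, 88.3 and 122 CPM in NTG 0 to NTG 3, and the groups overlapped. Its log2 fold change was 0.26 ± 0.19 (SE) with an adjusted p of 0.456. It is not stated whether reads of the transgene were counted under Nfe2l2, so these levels are no check of the labels. Keap1 stood at 45.8, 46.8 and 45.8 CPM in TGL and at 41.3, 42.0, 41.3 and 43.6 CPM in NTG. Every TGL library was above the NTG libraries, by a log2 fold change of 0.13 ± 0.07 (SE), and the difference was not called (adjusted p = 0.300). Of the 10 genes for Nrf2 and the proteins that bind it, edgeR called 0, DESeq2 called 0, and 4 had an unadjusted p under 0.05 (2 higher and 2 lower), while edgeR called 1 lower without TGL 2. Among them was Mafg, a small Maf partner, at 57.1, 62.6 and 64.7 CPM in TGL and at 49.4, 55.9, 47.1 and 39.0 CPM in NTG (adjusted p = 0.153).

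The letters that Nrf2 is known to read were looked up in front of genes called higher, those with the largest folds and up to 4 members of each list. The core of the antioxidant response element was searched as TGACNNNGC on both strands in the 250 bases before the start of each gene (RefSeq, GRCm38.p6). Of the 50 genes of the naming rule that were called higher and were looked up, 41 had a window in the table and 6 held the core. Of these 6, the 4 with the smallest adjusted p were taken, and Ctsd, whose stretch overlaps an annotated exon, is not printed. The 3 genes shown serve glutathione synthesis, glutathione conjugation and thioredoxin reduction. Each stretch is 99 bases on the gene's strand, 5′ to 3′, and the capitals mark the core or its reverse complement.
Gclm, chr3:122245378-122245476, plus strand: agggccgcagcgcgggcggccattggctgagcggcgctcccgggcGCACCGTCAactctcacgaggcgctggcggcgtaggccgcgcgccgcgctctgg
Gsta3, chr1:21240419-21240517, plus strand: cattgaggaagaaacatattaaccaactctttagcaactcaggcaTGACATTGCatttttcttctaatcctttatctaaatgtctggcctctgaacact
Txnrd1, chr10:82859069-82859167, plus strand: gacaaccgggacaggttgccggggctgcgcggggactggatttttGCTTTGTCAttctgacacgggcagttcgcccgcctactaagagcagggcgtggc
The core lay 134 bases before the start in Gclm, 121 in Gsta3 and 92 in Txnrd1, on the plus strand in Gsta3 and in reverse in the other two. The shares over all genes with a window lay close together. The core was found in 13.7% of 417 genes called higher, in 14.6% of 240 called lower and in 14.1% of 9150 not called. Among 182 genes called higher by at least 2-fold the share was 15.9%. A gene was counted if any of its windows held the core. Counted by window, a different unit, the share was 10.2% of all 32851 windows. The match describes these letters and says nothing of binding.

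Glutathione genes rose in part of the pathway. Glutathione, the main small thiol of the cell, is made by a ligase with a catalytic subunit (Gclc) and a modifier subunit (Gclm) and by glutathione synthetase (Gss), and it is returned to its reduced form by glutathione reductase (Gsr). Of the 14 members tested, 4 were called higher and 1 lower, beside 4.15% and 2.14% of all genes, and the median log2 fold change was 0.14 (2 were lower without TGL 2). Gclm (chromosome 3, 122245557 to 122270732) was at 182, 202 and 160.0 CPM in TGL and at 41.2, 43.1, 30.5 and 27 CPM in NTG, with no overlap. It was 5.11-fold higher, with a log2 fold change of 2.35 ± 0.15 (SE) and an adjusted p of 2.33e-06. Its partner subunit was not called: Gclc was at 22.7, 21.2 and 23.6 CPM in TGL and at 24.9, 23.5, 21.2 and 16.7 CPM in NTG (log2 fold change 0.06 ± 0.15, adjusted p = 0.849). Gss was at 16.9, 21.5 and 20.1 CPM in TGL and at 13.9, 11.1, 12.6 and 11.4 CPM in NTG, a 1.59-fold rise (adjusted p = 0.00703), with 10.3% of its 50-base words shared with other genes. Gsr was at 50.3, 43.0 and 30.8 CPM in TGL and at 21, 25.3, 27.3 and 23.8 CPM in NTG, a 1.70-fold rise (adjusted p = 0.00901), with TGL 2 the lowest of its group and still above NTG. Ggt5, a gamma-glutamyl transferase that breaks down glutathione conjugates outside the cell, was 2.39-fold higher (adjusted p = 0.00024), at 13.1 ± 1.41 CPM in TGL and at 5.48 ± 0.716 CPM in NTG (SD, n = 3 and 4). Slc7a11, the cystine importer, was higher in every TGL library, at 18.1, 21.6 and 26.6 CPM against 11.6, 9.33, 13.6 and 12.5 CPM in NTG, and was not called (log2 fold change 0.91 ± 0.38, adjusted p = 0.182). The call that fell was Glrx3, a glutaredoxin that carries iron-sulphur clusters (log2 fold change -0.32 ± 0.07, adjusted p = 0.0158, lost without TGL 0 or TGL 1).

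Among the glutathione S-transferases, which join glutathione to reactive compounds, the largest fold changes were in the alpha class, and 4 of the higher calls were in the mu class. Of 22 members tested 7 were called higher and 2 lower, with a median log2 fold change of 0.31. Gsta1 was at 306, 274 and 217 CPM in TGL and at 5.35, 5.70, 3.71 and 5.49 CPM in NTG, a 52.2-fold difference with an adjusted p of 4.32e-09. Gsta2 was at 121, 125 and 91.6 CPM in TGL and at 2.94, 2.28, 1.91 and 3.43 CPM in NTG, a 42.5-fold difference with an adjusted p of 1.44e-08. These are near copies, and 90.5% of the 50-base words of Gsta1 and 49.8% of those of Gsta2 occur in other genes, so their reads may have been split between them. Gsta3, of whose words 0.273% are shared, was at 50.9, 52.8 and 47.7 CPM in TGL and at 10.8, 8.08, 12.2 and 6.41 CPM in NTG, and was 5.40-fold higher (adjusted p = 3.14e-06). In the mu class Gstm2 was 2.71-fold higher (adjusted p = 9.29e-05), at 205, 201 and 145 CPM in TGL and at 67.4, 62.5, 77.1 and 64.1 CPM in NTG. Gstm1, Gstm3 and Gstm4 were higher by log2 fold changes of 0.81, 0.76 and 0.74, with 18.9%, 28.8% and 0.0% of their words shared. The 2 falls were Gstm7 (log2 fold change -0.31 ± 0.08) and Gstk1, a mitochondrial and peroxisomal transferase (-0.68 ± 0.09). The number called lower was 1 without TGL 0, TGL 1, NTG 0, NTG 1 or NTG 3.

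**Figure D2:**
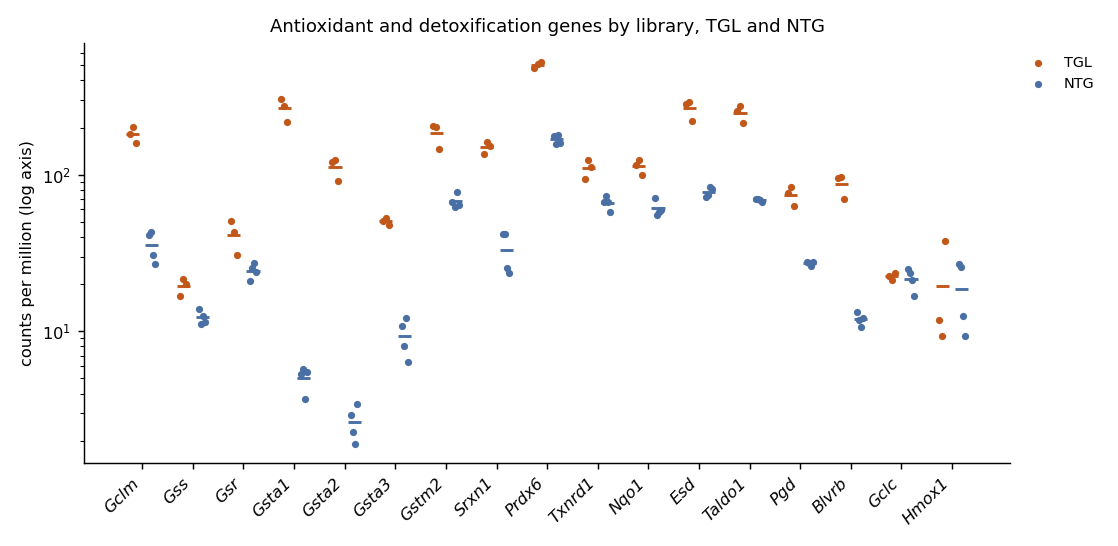
Level of 17 antioxidant and detoxification genes in CPM (log axis), with TGL left (orange, 3 libraries) and NTG right (blue, 4 libraries) of each gene, points for libraries and bars for group means. For 15 of the genes no TGL library reaches down to an NTG library, while Gclc and Hmox1 overlap.

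Enzymes that keep thioredoxin and peroxiredoxins reduced rose, though most members of the family were not called. Thioredoxin reductase 1 (Txnrd1) reduces thioredoxin with NADPH, and sulfiredoxin (Srxn1) repairs peroxiredoxins oxidised by hydrogen peroxide. Of 16 thioredoxin, peroxiredoxin and sestrin genes tested 3 were called higher and 1 lower, with a median log2 fold change of 0.08. Srxn1 was at 135, 161 and 153 CPM in TGL and at 41.6, 41.7, 25.2 and 23.6 CPM in NTG, a 4.54-fold rise (adjusted p = 0.000169). Prdx6, a peroxiredoxin that reduces phospholipid peroxides, was at 478, 506 and 526 CPM in TGL and at 177, 158, 180.3 and 159 CPM in NTG, a 2.99-fold rise (adjusted p = 0.00488). Txnrd1 was at 93.9, 124 and 112 CPM in TGL and at 66.5, 72.9, 66.7 and 57.8 CPM in NTG, a 1.66-fold rise (adjusted p = 0.00596). For these 3 genes the groups did not overlap. Thioredoxin itself (Txn1) was at 66.2, 66.3 and 57.0 CPM in TGL and at 52.8, 56.4, 59.6 and 62.7 CPM in NTG and was not called (adjusted p = 0.414), and Prdx1 was above NTG in every TGL library with an adjusted p of 0.0644. Sesn1, a p53-regulated stress gene, fell to 101, 118 and 138 CPM in TGL, against 215, 258, 353 and 166 CPM in NTG, or 0.480 times (adjusted p = 0.0144). Its call ended without TGL 0 (adjusted p = 0.0848) or TGL 1 (0.0675).

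Of 11 genes that remove superoxide and peroxide 4 were called higher and 0 lower by edgeR (6 higher and 0 lower both by DESeq2 and at an unadjusted p under 0.05), with a median log2 fold change of 0.31. The rises were small. Gpx3, a secreted glutathione peroxidase, was at 324, 319 and 334 CPM in TGL and at 198, 180.3, 228 and 279 CPM in NTG (1.47-fold, adjusted p = 0.0195). Gpx8, a peroxidase of the endoplasmic reticulum, was 1.4-fold higher (adjusted p = 0.0184), Selenow, a small selenoprotein, 1.31-fold (0.0134) and Gpx1, the general cytosolic glutathione peroxidase, 1.28-fold (0.0433). None of the 4 calls held without TGL 0, and the count was 1 without NTG 0 or TGL 1 and 2 without NTG 1. Cat (catalase) and Sod1 were not called, with log2 fold changes of 0.36 ± 0.10 (adjusted p = 0.0524) and 0.05 ± 0.10 (adjusted p = 0.837).

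Among enzymes that remove quinones, aldehydes and other carbonyls 7 of 21 were called higher and 1 lower, with a median log2 fold change of 0.22. Esd, an esterase that releases formate from its glutathione adduct in formaldehyde removal, was at 284, 291 and 221 CPM in TGL and at 72.4, 73.9, 82.9 and 81.0 CPM in NTG. That is a 3.42-fold difference with an adjusted p of 5.31e-07. Nqo1, the quinone reductase often used as a read-out of Nrf2, was at 116, 125 and 100.2 CPM in TGL and at 71.4, 55.2, 57.5 and 59.9 CPM in NTG, a 1.87-fold rise (adjusted p = 0.000336). Cbr3, a carbonyl reductase, was at 4.70, 7.35 and 3.34 CPM in TGL and at 1.07, 1.97, 1.79 and 1.26 CPM in NTG, a 3.32-fold rise (adjusted p = 0.00399). Ephx1, the microsomal epoxide hydrolase, was 1.52-fold higher (adjusted p = 0.0082). The other calls were Cbr1, Akr1a1 and Akr1b8, an aldo-keto reductase with a log2 fold change of 1.31 ± 0.26, and the fall of Aldh2, the mitochondrial aldehyde dehydrogenase (-0.26 ± 0.07, adjusted p = 0.0462). The number called higher was 4 without TGL 1, and the fall of Aldh2 was lost without NTG 0, NTG 1, TGL 0, TGL 1 or TGL 2.

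NADPH, the electron donor of these enzymes, comes largely from the pentose phosphate pathway and from NADP-dependent isocitrate dehydrogenase. Of 14 genes tested for its supply 3 were called higher and 0 lower by edgeR (3 higher and 0 lower by DESeq2, and 7 higher and 1 lower at an unadjusted p under 0.05), with a median log2 fold change of 0.21. Taldo1 (transaldolase) was at 254, 273 and 214 CPM in TGL and at 70.4, 69.9, 69.0 and 66.7 CPM in NTG, a 3.58-fold rise with an adjusted p of 8.67e-08. Pgd (6-phosphogluconate dehydrogenase) was at 76.3, 83.2 and 63.1 CPM in TGL and at 27.7, 27.2, 26.3 and 27.8 CPM in NTG, a 2.72-fold rise (adjusted p = 4.38e-06). Idh1 (cytosolic isocitrate dehydrogenase) was at 152, 139.7 and 131 CPM in TGL and at 55.5, 55.8, 88.5 and 62.8 CPM in NTG, a 2.15-fold rise (adjusted p = 0.000721). G6pdx, the entry enzyme of the pathway, lay above NTG in each TGL library by 1.25-fold and was not called (adjusted p = 0.142).

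In haem breakdown and iron storage 2 of 14 genes were called higher and 0 lower by edgeR (2 higher and 0 lower by DESeq2, and 4 higher and 0 lower at an unadjusted p under 0.05), with a median log2 fold change of 0.06. Blvrb (biliverdin reductase B) was at 94.7, 97.2 and 70.0 CPM in TGL and at 13.2, 11.8, 10.6 and 12.2 CPM in NTG, a 7.29-fold rise with an adjusted p of 8.7e-08. Fth1, the heavy chain of the iron store ferritin, was 1.20-fold higher (adjusted p = 0.0406), at 2151 ± 108 CPM in TGL and at 1797 ± 40.6 CPM in NTG (SD, n = 3 and 4). Its call was lost without NTG 0, NTG 1, NTG 3, TGL 0 or TGL 1, with adjusted p up to 0.154. Hmox1 (haem oxygenase 1), which opens the haem ring and is a textbook Nrf2 target, was at 11.8, 9.39 and 37.5 CPM in TGL and at 27, 25.8, 12.6 and 9.27 CPM in NTG. The groups overlapped, with TGL 2 the highest of the 7 libraries, and the adjusted p was 0.960.

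The largest fold changes belonged to genes with few or no counts in NTG hearts, several of them known from brain, testis or skin. Sstr5 (somatostatin receptor 5) was at 4.70, 8.85 and 6.40 CPM in TGL and without a count in the 4 NTG libraries (adjusted p = 0.00127). Set against 3 counts over the whole NTG group, its TGL level was 76.0-fold higher. That figure leaves out the counting error and spread of TGL, so it is no strict lower bound. By the same reckoning Nptx2 (neuronal pentraxin 2) was 66.5-fold higher, Brinp3 (a neuronal secreted protein) 64.3-fold, Tekt5 (a tektin of the sperm tail) 51-fold, Tchhl1 (a trichohyalin-like gene) 40.4-fold and Skint7 30.3-fold. Their TGL means were 5.86, 5.63, 4.47, 3.51 and 2.69 CPM, and their adjusted p lay between 1.76e-05 and 0.00261. Atp1b4, a relative of the sodium pump beta subunits that sits in the nuclear envelope of muscle, was at 5.94, 11.7 and 8.29 CPM in TGL and had 1 count in NTG, in NTG 2. Its level was 297 times that of NTG, with 95% exact bounds of 52.6 and 11781. These bounds cover counting error only.

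Of the risers with more counts in NTG, Star, which carries cholesterol into mitochondria for steroid synthesis, was at 123, 138 and 149 CPM in TGL and at 2.54, 2.59, 3.23 and 2.17 CPM in NTG. It was 51.7-fold higher with an adjusted p of 4.32e-09. Gpr83, an orphan receptor of the brain and of regulatory T cells, was at 17.4, 17.3 and 11.3 CPM in TGL and at 0.0, 0.311, 0.12 and 0.114 CPM in NTG (adjusted p = 3.94e-07). It had 5 counts over the NTG group, each library at or under the limit of a count of 0, and its level was 106 times that of NTG with exact counting bounds of 44.8 and 327. The fitted fold was 95.9, and 159.8 without NTG 1. Melk, a kinase usually linked to dividing cells, was at 15.1, 17.8 and 16.6 CPM in TGL and at 0.401, 0.207, 0.478 and 0.114 CPM in NTG (adjusted p = 5.2e-06), with 10 counts over the NTG group, or 56.5 times NTG with bounds of 30.3 and 119. Of 23 cell cycle and DNA replication genes edgeR and DESeq2 called 0, and 6 had an unadjusted p under 0.05. Without TGL 2 the edgeR calls were 1 higher and 1 lower, and without NTG 3 there was 1 lower. The rises of Sstr5, Nptx2, Brinp3, Tekt5, Tchhl1, Skint7, Atp1b4, Star, Gpr83 and Melk stayed called whichever of the 7 libraries was left out.

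**Figure D3:**
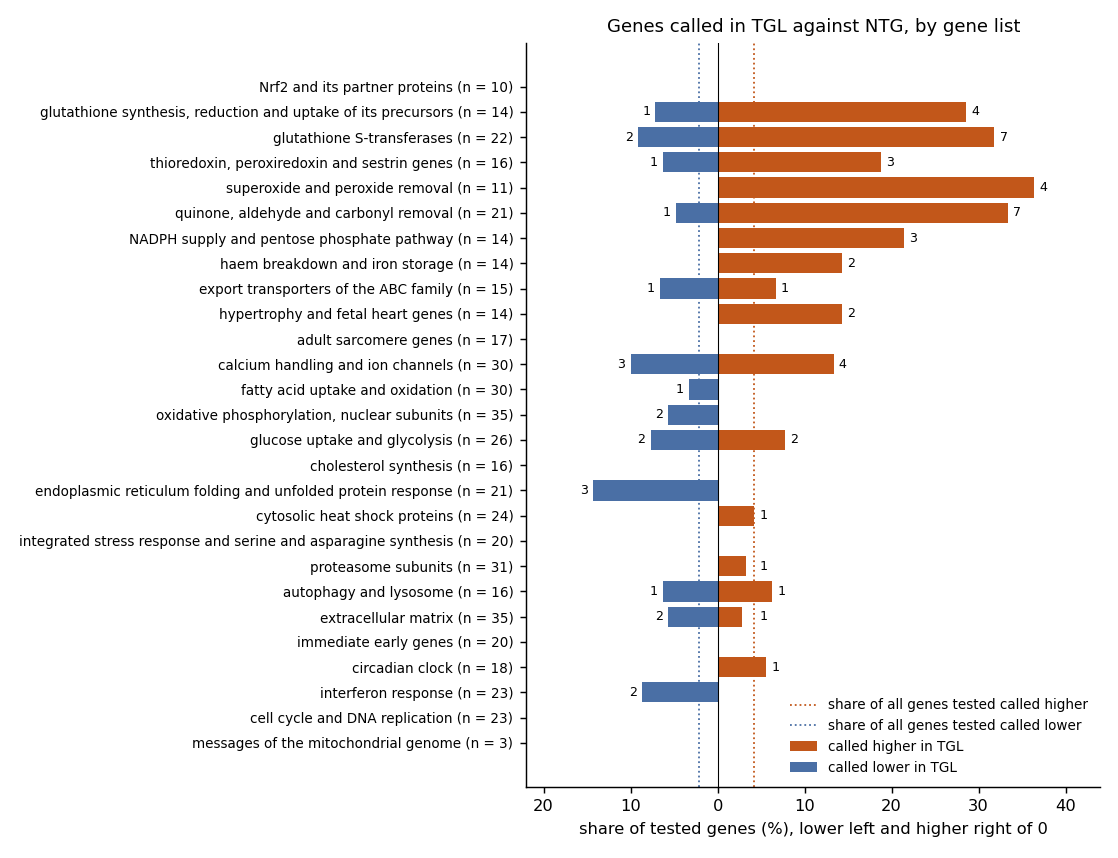
Share of the tested genes of 27 lists that were called higher (orange, right of 0) or lower (blue, left of 0) in TGL against NTG, with the number of genes at each bar. The dotted lines are the shares over all genes tested, 4.15% higher and 2.14% lower, and the widest orange bars are those of the superoxide and peroxide, quinone, transferase and glutathione lists.

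Among genes used as signs of hypertrophy and of the fetal heart 2 of 14 were called higher and 0 lower by edgeR (3 higher and 0 lower by DESeq2, and 4 higher and 0 lower at an unadjusted p under 0.05), with a median log2 fold change of 0.21. Nppa, the atrial natriuretic peptide that the stressed ventricle also makes, was at 293, 894 and 356 CPM in TGL and at 42.3, 38.7, 80.6 and 68.6 CPM in NTG. It was 8.94-fold higher with a log2 fold change of 3.16 ± 0.36 (SE) and an adjusted p of 0.000336. TGL 1 held the highest value, and without it the fold was 5.64 (adjusted p = 0.000233). Of its words 53.4% are shared with other genes and 61.5% of its exonic bases lie under exons of a gene on the other strand, which a kit without strand marking cannot separate. Nmrk2, a nicotinamide riboside kinase of muscle, was at 11.5, 12.8 and 9.60 CPM in TGL and at 4.81, 4.35, 3.11 and 7.90 CPM in NTG (2.23-fold, adjusted p = 0.0291). Its call ended without NTG 0, NTG 1, TGL 0 or TGL 1, with adjusted p up to 0.122.

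The natriuretic and skeletal genes next to these depended on 1 NTG library. Nppb was at 394, 370.0 and 287 CPM in TGL and at 84.7, 78.3, 629 and 159 CPM in NTG, so NTG 2 lay above all TGL libraries and the other NTG libraries below them. It was not called (adjusted p = 0.638) and was called without NTG 2 (adjusted p = 0.0144). Acta1, skeletal alpha-actin, was at 264, 933 and 939 CPM in TGL and at 209, 181, 1063 and 242 CPM in NTG, with the same pattern (adjusted p = 0.484, and 0.0144 without NTG 2). Without NTG 2 the list had 5 genes called higher, and it had 1 without NTG 0, NTG 1 or TGL 0. Myh7, the slow myosin heavy chain of the fetal ventricle, was at 3142, 4103 and 4770.1 CPM in TGL and at 2552, 2597, 5051 and 3583 CPM in NTG and was not called (adjusted p = 0.615).

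Atrial muscle makes Nppa at rest, so its markers were read beside it. Of the 9 atrial markers 5 were tested, and 2 of these were called higher by edgeR, Nppa and Myl4 (3 by DESeq2, and 3 by edgeR without TGL 0). Myl4, the atrial essential light chain that the fetal ventricle also uses, was at 13.4, 44.1 and 22 CPM in TGL and at 2.81, 1.87, 3.47 and 2.86 CPM in NTG (9.68-fold, adjusted p = 0.000349). TGL 1 again held the highest value, and without it the fold was 6.44. Dkk3, a secreted Wnt modulator on the list, was at 2.90, 4.08 and 5.96 CPM in TGL and at 2.67, 1.66, 2.51 and 1.49 CPM in NTG, without overlap. The other 2 tested markers, Nr2f2 and Stard10, went the other way, with negative log2 fold changes. Neither was called, and for both the TGL and NTG libraries overlapped. The summed level of the list was 338 to 974 CPM in TGL and 82.7 to 121 CPM in NTG. In TGL most of this sum was Nppa itself (293, 894 and 356 CPM), so it mainly repeats that gene. Sln (sarcolipin), Myl7 and Bmp10, which define atrial cardiomyocytes, were at 0 to 0.138 CPM in TGL and at 0 to 0.478 CPM in NTG, at or near the limit that a count of 0 allows.

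Genes of calcium cycling changed in both directions. Of 30 genes for calcium handling and ion channels 4 were called higher and 3 lower, with a median log2 fold change of -0.04. Atp2a2, the pump that refills the sarcoplasmic reticulum, fell to 10795, 11237 and 11916 CPM in TGL, against 15115, 14593, 15048 and 13975 CPM in NTG, or 0.771 times (adjusted p = 0.00929). Ryr2, its release channel, fell to 1405, 1466 and 1468 CPM in TGL, against 1990.2, 1974, 2229 and 1897 CPM in NTG, or 0.715 times (adjusted p = 0.00727). Cacna2d1, an auxiliary subunit of the L-type calcium channel, fell to 197, 214 and 238 CPM in TGL, against 321, 321, 331 and 297 CPM in NTG, or 0.680 times (adjusted p = 0.00176). For each of the 3 genes the groups did not overlap. Casq2, the calcium store protein of the cardiac reticulum, rose to 1867, 1698 and 1742 CPM in TGL, against 1286, 1241, 1406 and 1518 CPM in NTG (1.30-fold, adjusted p = 0.0144). Casq1, the skeletal form, is described with the genes that set TGL apart from TGH. Camk2d, the main calmodulin kinase of the heart, was 1.56-fold higher (adjusted p = 0.0082), and Kcnip2, a subunit of the transient outward potassium channel, was 1.58-fold higher (0.00623). The call of Atp2a2 ended without TGL 0 (adjusted p = 0.0540) and that of Casq2 without TGL 0 (0.0740) or NTG 0 (0.0570), and the number called higher was 2 without NTG 0.

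The contractile proteins gave no call: of 17 adult sarcomere genes edgeR and DESeq2 called 0, and 3 had an unadjusted p under 0.05, each of them lower. The median log2 fold change was -0.08, and edgeR called 1 lower without NTG 3 or TGL 2. Their summed level was 90849.6 to 94889 CPM in TGL and 94419.9 to 103476 CPM in NTG. By change in CPM the naming rule also picked Lrtm1, a leucine-rich repeat protein of the heart, at 489.7, 441 and 440.2 CPM in TGL and at 744, 746, 1099 and 687 CPM in NTG (0.558 times, adjusted p = 0.0143, and 0.0719 without TGL 1). Ankrd23, a stretch-responsive titin-binding protein, was higher at 799, 903 and 880.3 CPM in TGL, against 407, 328, 749.7 and 498 CPM in NTG (1.74-fold, adjusted p = 0.0465). With NTG 2 left out its adjusted p was 0.000806, with any other library left out it was 0.0651 to 0.150, and 75.0% of its words are shared with other genes.

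Summed levels of genes for fatty acid use and for oxidative phosphorylation lay lower in every TGL library than in every NTG library, with few single genes called. The fatty acid list summed to 25841 to 26686 CPM in TGL and to 28477 to 31585 CPM in NTG. Of its 30 genes for uptake and oxidation 1 was called lower and 0 higher by edgeR (4 lower and 0 higher by DESeq2, and 12 lower and 0 higher at an unadjusted p under 0.05), with a median log2 fold change of -0.13 and 24 of the 30 below 0. Lpl, the lipase that frees fatty acids from lipoproteins, fell to 5742, 5876 and 5894 CPM in TGL, against 9283, 8805, 6972 and 7994 CPM in NTG, or 0.706 times (adjusted p = 0.0127). Lpl alone gave a large part of the fall in the summed level of the list. Its call ended without TGL 0 (adjusted p = 0.0643) or TGL 1 (0.0522), and the list had 4 lower without NTG 2 and 3 without TGL 2. Of 35 nuclear genes for oxidative phosphorylation 2 were lower and 0 higher by edgeR (5 lower and 0 higher by DESeq2, and 11 lower and 0 higher at an unadjusted p under 0.05), with a median log2 fold change of -0.10 and 30 of the 35 below 0. Their sum was 32547 to 32911 CPM in TGL and 33796 to 36046 CPM in NTG. The calls were Cox7a1, the muscle form of a cytochrome oxidase subunit (0.751 times, adjusted p = 0.00998, and 0.0699 without TGL 0), and Uqcrc1, a core protein of complex III (0.844 times, adjusted p = 0.0452). Uqcrc1 was called with NTG 2 left out and not with any other library left out, so that 1 call was left without TGL 2. In glucose uptake and glycolysis 2 of 26 genes were higher and 2 lower. Hk1, a hexokinase, was at 256, 320.2 and 270.1 CPM in TGL and at 162, 161, 221 and 208 CPM in NTG (1.5-fold, adjusted p = 0.0146, and 0.0832 without TGL 1). Pfkp, the platelet phosphofructokinase, was 1.42-fold higher, Pfkfb1 was at 0.456 times and Pdk2, a kinase that holds back pyruvate dehydrogenase, at 0.831 times. Each of these 3 calls was lost without NTG 0, NTG 1 or TGL 0, those of Pfkp and Pfkfb1 also without TGL 1 and that of Pdk2 also without TGL 2 (adjusted p up to 0.131, 0.108 and 0.142). Of 16 cholesterol synthesis genes edgeR and DESeq2 called 0, and 4 had an unadjusted p under 0.05.

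The mean level of protein-folding genes lay below every NTG library in TGL 0 and TGL 1 and within the NTG range in TGL 2. Of 21 genes for folding in the endoplasmic reticulum and the unfolded protein response 3 were called lower and 0 higher by edgeR (5 lower and 0 higher by DESeq2, and 13 lower and 0 higher at an unadjusted p under 0.05), with a median log2 fold change of -0.43. The mean log2 CPM of the list was 5.97, 6.04 and 6.64 in TGL 0 to TGL 2, against 6.80, 6.77, 6.46 and 6.70 in NTG 0 to NTG 3. Herpud1, which serves the disposal of misfolded proteins, was at 154, 177 and 275 CPM in TGL and at 343, 344, 478 and 284 CPM in NTG (0.558 times, adjusted p = 0.0287). Canx and Dnajb9, a membrane chaperone and a co-chaperone, were at 0.759 and 0.738 times (adjusted p = 0.0417 and 0.0490). Each of the 3 calls was lost without NTG 0, NTG 1, TGL 0 or TGL 1 (Canx also without NTG 3, Dnajb9 also without NTG 2 or NTG 3), and without TGL 2 the list had 13 genes called lower. Hspa5, the central chaperone of the reticulum, was at 527, 554 and 839 CPM in TGL and at 1035, 954, 720.5 and 1142 CPM in NTG. It was not called (adjusted p = 0.103) and was called lower without NTG 2 (0.0412) or TGL 2 (0.0181).

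The cytosolic heat shock list showed the same split of libraries. Its mean log2 CPM was 7.01, 7.23 and 8.34 in TGL 0 to TGL 2, against 8.41, 8.17, 7.53 and 8.16 in NTG 0 to NTG 3, so TGL 2 lay with NTG and NTG 2 towards TGL. Hspa1b, an inducible Hsp70 gene with 62.3% of its words shared, ranged from 1.94 to 234 CPM in TGL and from 13.9 to 243 CPM in NTG and was not called (adjusted p = 0.798). Of 24 members edgeR called 1 higher and 0 lower (DESeq2 1 lower, and 2 lower at an unadjusted p under 0.05), and without TGL 2 there were 12 lower. The rise was Hspb7, the small heat shock protein of the heart, at 3942, 4084 and 4608 CPM in TGL and at 2979.8, 2482, 3486 and 3109.7 CPM in NTG (1.4-fold, adjusted p = 0.0280). It was lost without NTG 0, NTG 1, TGL 0, TGL 1 or TGL 2, with adjusted p up to 0.0816. For the 20 immediate early genes, which respond within minutes to stimuli and handling, edgeR and DESeq2 called 0 and 4 were lower at an unadjusted p under 0.05, with a mean log2 CPM of 3.41, 3.61 and 5.03 in TGL and 4.63, 4.50, 4.72 and 4.73 in NTG. Without TGL 2 there were 5 lower. What sets TGL 2 and NTG 2 apart was not tested.

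**Figure D4:**
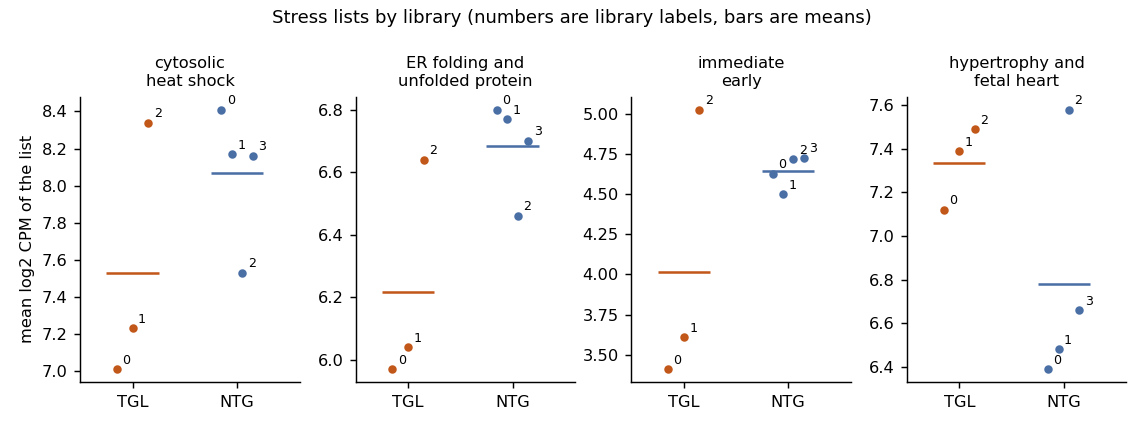
Mean log2 CPM of 4 gene lists in each TGL (orange, left) and NTG (blue, right) library, with library numbers at the points and bars at group means. TGL 2 lies apart from TGL 0 and TGL 1 in the heat shock, folding and immediate early panels, and NTG 2 apart from the other NTG libraries in the heat shock, folding and hypertrophy panels.

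Matrix, immune and other cell-type lists held at most 2 calls in either direction, beside 4.15% higher and 2.14% lower over all genes tested. The shares of fibroblast markers higher and of matrix and interferon genes lower lay above these, on 2 genes each. That of matrix genes higher lay below. In the extracellular matrix list 1 of 35 genes was higher and 2 were lower, with a median log2 fold change of 0.05, and without NTG 2 there were 6 higher and 1 lower (2 higher without TGL 2). Lum (lumican), a collagen-binding proteoglycan, was at 219.5, 169 and 174 CPM in TGL and at 83.5, 63.8, 129 and 94.6 CPM in NTG (2.02-fold, adjusted p = 0.00637). Timp4, the metalloproteinase inhibitor of the heart, fell to 8.02, 9.80 and 27.9 CPM in TGL, against 44.4, 44.1, 71.4 and 45.2 CPM in NTG (0.296 times, adjusted p = 0.0285), a call lost without NTG 0, NTG 1, TGL 0 or TGL 1 (up to 0.131) and at 0.174 times without TGL 2. Lox, which cross-links collagen, was at 0.505 times (adjusted p = 0.0475, and called with NTG 1 left out but not with any other library left out). Fibroblast markers summed to 2494 to 3081 CPM in TGL and to 2238 to 2490.3 CPM in NTG, which do not overlap. Of 10 markers 2 were called higher and 0 lower by edgeR (3 higher and 0 lower by DESeq2, and 6 higher and 0 lower at an unadjusted p under 0.05). The median log2 fold change was 0.36, with 9 of the 10 above 0. The edgeR calls were Lum and Pi16 (1.73-fold, adjusted p = 0.0206, lost without NTG 0, NTG 1, TGL 0 or TGL 1). The part of fibroblasts in the rise of Lum was not tested. Of 12 macrophage, 11 endothelial, 9 smooth muscle and 7 valve or conduction markers edgeR and DESeq2 called 0, with 2, 4, 2 and 2 at an unadjusted p under 0.05. EdgeR called 1 macrophage and 1 smooth muscle marker higher without NTG 2, 1 endothelial marker lower without TGL 2 or NTG 3 and 1 macrophage marker lower without NTG 3. Among 23 interferon genes 2 were lower and 0 higher by edgeR (4 lower and 0 higher by DESeq2, and 8 lower and 0 higher at an unadjusted p under 0.05), with a median log2 fold change of -0.41 and 20 of the 23 below 0. These were Ifi205 and Rsad2, an antiviral enzyme at 0.374 times (adjusted p = 0.0461), whose call was lost without NTG 0, NTG 1, NTG 2, TGL 0 or TGL 2 and which was at 0.248 times without TGL 1.

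Other lists held 0 to 2 calls, some in genes with shared words. Of 20 genes of the integrated stress response edgeR called 0 and DESeq2 1, with 3 at an unadjusted p under 0.05 (edgeR called 1 higher and 1 lower without NTG 2, and 1 lower without TGL 2). Ctsd (cathepsin D), the main aspartic protease of lysosomes, was at 1773, 1688 and 1600.3 CPM in TGL and at 1311, 1140.1, 1257 and 1305 CPM in NTG (1.35-fold, adjusted p = 0.00901), with 32.4% of its words shared, and its list had 2 genes higher without NTG 2. Bnip3, a receptor for the removal of mitochondria, fell to 119, 120.1 and 134 CPM in TGL, against 208, 222, 161 and 171 CPM in NTG (0.655 times, adjusted p = 0.00621), with 47.2% shared. Psma5 was the 1 proteasome subunit of 31 to be called, at 40.6, 34.2 and 41.6 CPM in TGL and at 22.7, 24.0, 22.4 and 22.4 CPM in NTG (1.69-fold, adjusted p = 0.000721), with 50% shared. Abca1, which exports cholesterol, was at 0.585 times (adjusted p = 0.00757, and 0.0511 without TGL 0), and Abca8a was 1.39-fold higher (adjusted p = 0.0274, lost without NTG 0, NTG 1, TGL 0 or TGL 1). Of the export transporters 2 were higher without NTG 2 or TGL 2. Bhlhe41, a repressor in the circadian clock, was 1.53-fold higher (adjusted p = 0.0232, lost without NTG 3, TGL 0 or TGL 1), and without TGL 2 the clock list also had 3 genes lower. Sox10, a Schwann cell factor, was 2.41-fold higher at 2.28 ± 0.228 CPM in TGL and at 0.942 ± 0.356 CPM in NTG (SD, n = 3 and 4). It was the 1 edgeR call among 6 Schwann cell and neuron markers tested. The call was lost without NTG 1, NTG 3, TGL 0 or TGL 1, and also with DESeq2, a replicate block or only the 7 TGL and NTG libraries.

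The falls with the largest fold were in genes of low level. Lgals4, an intestinal galectin, fell to 2.90, 2.72 and 3.78 CPM in TGL, against 18.3, 26.5, 9.45 and 10.8 CPM in NTG (0.192 times, adjusted p = 0.00600). Ifi205 and Mnda, interferon-inducible neighbours on chromosome 1, fell to 12, 7.90 and 3.78 CPM and to 7.33, 5.17 and 5.53 CPM in TGL, against 52.2, 59.7, 42.3 and 38.7 CPM and 28.5, 29.1, 22.2 and 24.6 CPM in NTG. They were at 0.165 and 0.231 times (adjusted p = 0.00351 and 0.000244), and 18.6% and 72.8% of their words are shared with other genes. Akr1e1, an aldo-keto reductase, was at 0.303 times (adjusted p = 0.0481), a call lost without NTG 0, NTG 1, TGL 0, TGL 1 or TGL 2. It was at 7.88, 11.2 and 6.25 CPM in TGL and at 38.5, 37.3, 16 and 20 CPM in NTG, so the NTG libraries themselves spread widely.

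Of 26 genes of the mitochondrial genome tested edgeR called 5 lower (19.2%, beside 2.14% of all genes), with a median log2 fold change of -0.57. The transfer RNA gene mt-Te was at 2166, 1932 and 2078 CPM in TGL and at 2860.4, 2601, 2549.8 and 2617 CPM in NTG (0.775 times, adjusted p = 0.0290), a call lost without NTG 0, NTG 1, TGL 0 or TGL 1. The mt-Te gene holds only 20 words of 50 bases, and the source of its reads was not tested. Of the 13 messages of this genome only 3 are in the deposited table, and these were tested. EdgeR and DESeq2 called 0 of the 3, and 1 was lower at an unadjusted p under 0.05. Their sum was 37361 to 42780 CPM in TGL and 44019 to 45381 CPM in NTG, without overlap.

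The high line served to ask which of these differences also set TGL apart from it. TGH against TGL gave 803 higher and 596 lower, which was 5.53% and 4.11% of the genes tested and 9.64% together. The TGL libraries enter both contrasts, so the values stand side by side and no overlap is drawn from them. Several antioxidant genes were higher again in TGH. Gclm was at 509, 553 and 582 CPM in TGH (3.02-fold over TGL, adjusted p = 0.00014), Gsta3 at 198, 211 and 184 CPM (3.91-fold, 6.07e-05), Taldo1 at 659, 644 and 659 CPM (2.65-fold, 1.52e-05) and Blvrb at 307, 284 and 255 CPM (3.23-fold, 3.27e-05). Gclc, not called in TGL, was 1.48-fold higher in TGH than in TGL (adjusted p = 0.0423), and so was Txn1, at 1.5-fold (0.00206). Nqo1 was higher by a smaller step of 1.36-fold (0.0261). Nppa, with 316, 349 and 378 CPM in TGH and 293, 894 and 356 CPM in TGL, was not called between the lines (log2 fold change -0.57 ± 0.37, SE, adjusted p = 0.387). Ryr2 (0.10 ± 0.09, adjusted p = 0.587) and Atp2a2 (-0.06 ± 0.08, adjusted p = 0.689) were not called either, which does not show that the lines were alike. The count of higher genes was 472 without TGL 1 and 456 without TGH 1, and that of lower genes 331 and 274.

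Some genes differed in TGL from NTG and, the other way, from TGH. The 6 higher and 6 lower ones with the largest change are described by the naming rule, which uses both contrasts, so their direction is given by the choice. Idh1 was the antioxidant gene among them: it was at 152, 139.7 and 131 CPM in TGL, 83.4, 83.0 and 76.8 CPM in TGH and 55.5, 55.8, 88.5 and 62.8 CPM in NTG. Zfp985, a zinc finger gene with 15.9% of its words shared, was at 8.29, 5.99 and 5.09 CPM in TGL, 2.34, 2.42 and 2.59 CPM in TGH and 1.07, 1.14, 2.15 and 2.63 CPM in NTG (3.67-fold over NTG, adjusted p = 0.00319). Afap1, an actin filament protein, was at 32.9, 28.0 and 22.1 CPM in TGL, 15.2, 16.1 and 17.0 CPM in TGH and 11.1, 14.3, 16.4 and 15.2 CPM in NTG (1.94-fold, adjusted p = 0.00326). Casq1, the calcium store protein of skeletal muscle, was at 20.9, 33.2 and 80.4 CPM in TGL, 6.32, 7.87 and 10.4 CPM in TGH and 12.7, 7.46, 25.1 and 10.8 CPM in NTG, so that TGL and NTG overlapped. Pacsin1 and Astn2, both known from neurons, were 4.71-fold and 2.30-fold higher than NTG (Pacsin1 7.4-fold without NTG 2), and Casq1 was 3.21-fold higher, and 1.94-fold without TGL 2. The calls of Pacsin1, Astn2 and Casq1 against NTG were lost when any of several single libraries was left out (adjusted p up to 0.0925, 0.138 and 0.135), among them NTG 0, NTG 1, NTG 3 and TGL 2 for each, and TGL 0 for Pacsin1 and Astn2 and TGL 1 for Casq1.

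Of the falls, Sorcs2 had the smallest adjusted p. It is a sorting receptor of neurons and was at 4.01, 3.27 and 4.07 CPM in TGL, 16.7, 17.6 and 18.9 CPM in TGH and 21.5, 28.2, 31.2 and 18.7 CPM in NTG (0.152 times NTG, adjusted p = 9.6e-06). Poln, a DNA polymerase, was at 0.415, 0.136 and 0.291 CPM in TGL, 1.64, 2.77 and 1.41 CPM in TGH and 2.67, 2.49, 5.98 and 2.29 CPM in NTG, and its TGL level was at or under the limit of a count of 0. C5ar1 (the receptor of complement C5a), Mid1 and Corin were at 0.298, 0.327 and 0.648 times NTG. Corin, the protease that cuts the atrial peptide's precursor, was at 224, 164 and 220.0 CPM in TGL, 357, 329 and 284 CPM in TGH and 303, 357, 296 and 294 CPM in NTG (adjusted p = 0.0101). Mid1 shares 28.7% of its words. Fbxo44, a ubiquitin ligase subunit, was at 0.553, 0.408 and 0.873 CPM in TGL, 9.02, 0.519 and 8.22 CPM in TGH and 14, 14.3, 7.65 and 8.58 CPM in NTG, so TGH 1 lay within the TGL range. Zfp982, picked for its fall against NTG and not called between TGH and TGL (adjusted p = 0.0534), was at 0.138, 0.0 and 0.582 CPM in TGL, 5.74, 0.519 and 4 CPM in TGH and 8.56, 8.81, 4.54 and 2.75 CPM in NTG. It was at 0.0402 times NTG, and at 0.0134 times without TGL 2. The calls of Fbxo44 and Zfp982 against NTG (adjusted p = 0.0115 and 0.0166) were lost without TGL 0 or TGL 1.

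**Figure D5:**
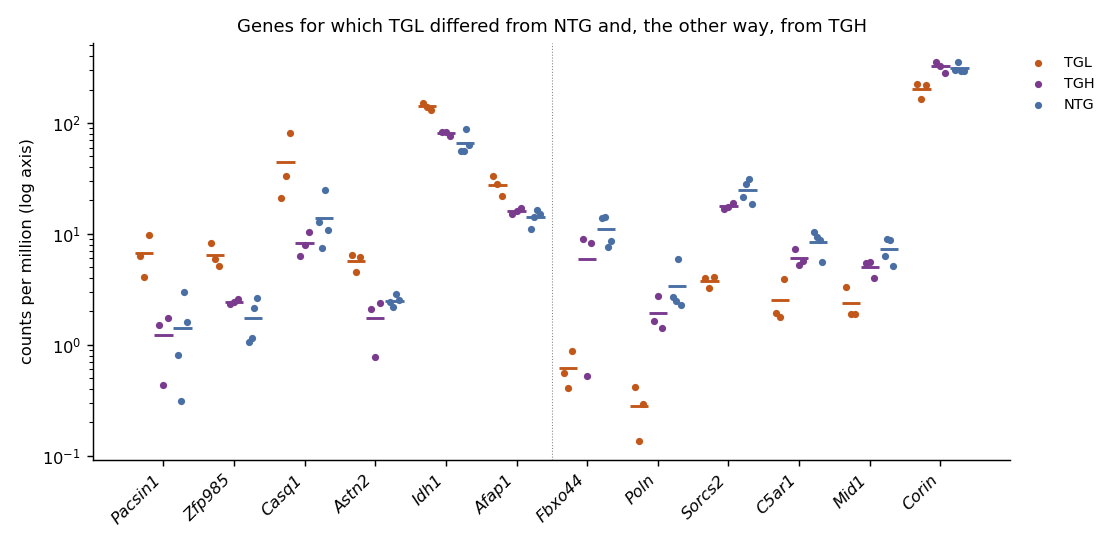
Level in CPM (log axis) of the 12 genes named among those that differed in TGL from NTG and, in the other direction, from TGH. TGL (orange), TGH (purple) and NTG (blue) stand side by side for each gene, with points for libraries and bars for means. The TGL mean is highest in the 6 genes left of the dotted line and lowest in the 6 right of it, with the TGH 1 value of Fbxo44 within the TGL range and the TGL 0 value of Casq1 within the NTG range.

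Several of these genes lie close together on GRCm38, which was noticed after their values were seen. On chromosome 5 Nat8l (33995984 to 34005916), Poln (34007179 to 34169448), Afap1 (35893319 to 36003923) and Sorcs2 (36017180 to 36398139) lie between 33.5 and 36.5 Mb, where 3 of 37 genes tested were higher and 3 lower. Nat8l, an enzyme that acetylates aspartate, was at 0.306 times NTG, and its call held with NTG 3 left out but not with any other library left out. On chromosome 4 Zfp982 (147492417 to 147513486), Zfp985 (147553277 to 147585198), Nppa (148000722 to 148002079) and Fbxo44 (148152800 to 148160482) lie between 147 and 148.5 Mb, where 3 of 28 were higher and 4 lower. On chromosome 1 Casq1 (172209894 to 172219868), Mnda (173896345 to 173913046) and Ifi205 (174011998 to 174031810) lie between 172 and 174.1 Mb, where 1 of 28 was higher and 4 lower. Over all genes tested 4.15% were called higher and 2.14% lower. The stretches were chosen for the genes in them, so their counts are a description even beside these shares. No cause of the differences in them was tested.

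A block of genes with long shared stretches at the start of chromosome 14, noticed after its values were seen, held many rises. Between 3049285 and 7951588, 28 of 32 genes tested were called higher and 0 lower, beside 4.15% and 2.14% of all genes tested. The median log2 fold change over the 28 was 3.38, with a range of 1.95 to 6.21. These genes bear predicted, clone or pseudogene names. Together they had 360 to 444 counts in a TGL library and 53 to 87 in an NTG library. They share 48.8 to 99.7% of their 50-base words with other genes (median 87.2%), so the reads cannot be placed on single members. Among them is Esd-ps, a pseudogene with 82.1% of its words in other genes.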

How the data were processed

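Left ventricular mRNA was sequenced from 3 TGL, 3 TGH and 4 NTG hearts, with libraries made by a TruSeq kit from Trizol RNA per the labels. The submitters' processing notes name bcl2fastq 1.8.4, Trim Galore 0.4.0, Novoalign, SAMtools, DESeq2 1.18.1 and the build mm10 (GRCm38). No source used here gives the read counter, its annotation or its strand setting.

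The authors deposited raw read counts per gene and library, which are the values used. The same table holds the authors' comparison of all transgenic with non-transgenic hearts, as a mean normalised count (a signal), a log2 fold change, a test score and p-values, and these deposited columns gave no result here. Genes without a symbol (1324) held 0.777% of counts, and 21 symbols that had become dates were restored from the annotation.

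Genes with low counts were removed with filterByExpr, leaving 14511. Counts were scaled by TMM and fitted in 1 model over the 3 groups with edgeR 4.0.16 (R 4.3.3), and the quasi-likelihood F test was adjusted by Benjamini-Hochberg over all genes tested, with a threshold of 0.05. The biological coefficient of variation was 13.9%. Named genes were those with the largest change in fold or in CPM, those that differed in TGL from both other groups, and up to 4 members of each list by adjusted p, with members added where they were needed to say that they were not called. Some genes that this rule names are not reported here. The members and lists were chosen with earlier results of these data known. Shared sequence is the share of a gene's 50-base words found in other genes of the annotation. Alternatives were DESeq2 1.42.0, RLE size factors, other filters, fewer groups, a replicate block and leaving out each library. Leaving out NTG 2 and TGL 2 together was chosen after seeing the data.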

Additional observations from a re-analysis of the deposited data

Results flagged for a closer look

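Some NTG libraries lay far from the other 3 of their group, judged by the gap to the nearest library over the whole range, which chance gives in about 1 in 20 groups. Of 97 named genes and 37 list means looked at in this way 8 were picked out, all of them genes, a share near that of chance. All except Corin lay in NTG 2, however, and genes of 1 library are not independent. The share therefore does not tell whether NTG 2 differs as a whole. In NTG 2 these were Timp4 at 71.4 CPM (the others 44.1 to 45.2), Poln at 5.98 CPM (2.29 to 2.67), Lrtm1 at 1099 CPM (687 to 746), Kcnip2 at 272 CPM (224 to 230.5), Nppb at 629 CPM (78.3 to 159) and Acta1 at 1063 CPM (181 to 242). Atp1b4 had its only NTG count in NTG 2, at 0.12 CPM. In NTG 1 it was Corin at 357 CPM (294 to 303).

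The number of all genes in which the difference of TGH from TGL was called and ran opposite to that of TGL from NTG is not given. The 12 listed here are those that the naming rule picked for the largest change. The test was edgeR's quasi-likelihood F test with Benjamini-Hochberg adjustment. The TGL libraries enter both differences, and the genes were chosen for this. Those higher in TGH than in TGL, on the log2 scale, were Fbxo44 by 3.21 (adjusted p = 0.0476), Poln by 2.76 (0.0195), Sorcs2 by 2.23 (0.000138), C5ar1 by 1.25 (0.0308), Mid1 by 1.08 (0.0437) and Corin by 0.68 (0.00727). Those lower, with negative log2 differences, were Pacsin1 at -2.49 (0.0229), Casq1 at -2.45 (0.0108), Astn2 at -1.74 (0.00697), Zfp985 at -1.39 (0.0142), Idh1 at -0.80 (0.00743) and Afap1 at -0.78 (0.0108).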

How the results depend on the processing

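Against 602 genes higher and 311 lower in TGL than in NTG, DESeq2 gave 695 and 416, RLE size factors 608 and 293, no filter 582 and 314, a filter of 1 CPM 606 and 308, and the 7 TGL and NTG libraries alone 520 and 272. Leaving out single libraries gave 372 to 734 higher and 84 to 665 lower. Without NTG 2 and TGL 2 together, a choice made after seeing the data, there were 884 higher and 782 lower. For TGH against TGL single libraries gave 456 to 811 higher and 274 to 621 lower. The replicate numbers did not pair the libraries (correlations of deviations -0.0417, -0.0525 and -0.00428 for equal numbers). With a replicate block 615 were higher and 448 lower in TGL against NTG, and 739 and 538 in TGH against TGL. Similar totals need not be the same genes. The block kept 493 of the 602 and 222 of the 311, and without NTG 3, 233 of 319 lower calls were among the 311. Of 89 named genes called, 87 stayed called with DESeq2, 81 with the block and 80 with the 7 libraries alone. Values that were not called changed sign: Gclc was at -0.0451 with the block and -0.0444 without NTG 3, Nfe2l2 at -0.0128 without NTG 2 and TGL 2, and Nppa in TGH against TGL at 0.0986 without TGL 1. Hmox1 was at -0.403 with the block, -0.0875 without NTG 2, -0.164 without NTG 3, -0.818 without TGL 2 and -0.966 without both. Over the libraries left out singly Gclc ranged from -0.0444 to 0.134, Hmox1 from -0.818 to 0.398 and Nppa in TGH against TGL from -0.85 to 0.0986. The cause was not tested.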
